A study of Homo sapiens with 8 samples.

Results

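The DNA repair genes that act on platinum adducts were described across arrays of SAS cells, a line established from a squamous cell carcinoma of the tongue. A list of 43 genes was chosen by name, from nucleotide excision repair, the Fanconi anemia pathway, homologous recombination, mismatch repair, translesion synthesis and the damage checkpoint. All 43 were on the array, with 77 of its 58201 gene probes, out of 43317 gene names in all. The cells had been transfected with 25 nM of a miRNA mimic or of a negative control RNA (NC), and total RNA was taken after 48 h according to the labels, where the study's methods give a shorter time. The 4 groups, NC and the mimics of miR-629-3p, of miR-210-3p and of miR-874-3p, had 2 arrays each. The labels name the cells SAS, the study's text names SAS/GFP, the GFP-expressing control derivative of the same line, and the labels name no cisplatin treatment for these cultures. All groups shared the line and the transfection, and nothing in the labels says that the 2 arrays of a group came from separate cultures, so every p-value here measures the spread between these arrays, which may be technical.

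Cisplatin binds purines and joins neighbouring bases of a strand, or, less often, bases of opposite strands. Adducts within a strand are removed by nucleotide excision repair, in which damage sensors recruit the helicases of TFIIH and a pair of nucleases that cut on either side. Crosslinks between strands need the Fanconi anemia proteins, structure-specific nucleases, translesion polymerases and homologous recombination, and mismatch repair and the checkpoint kinases signal the damage. Reduced repair is associated with cisplatin sensitivity, and the study asked which genes change with miRNAs that it had examined for cisplatin resistance. In bulk RNA, fewer cells with a transcript and less transcript per cell cannot be told apart.

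The mimics that define the 3 treated groups have no seed in common. The mature sequences are given from RefSeq (GRCh38.p14), 5′ to 3′, with the seed, bases 2 to 8, in capitals.
miR-629-3p (chr15:70079387-70079408, minus strand): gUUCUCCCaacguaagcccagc
miR-210-3p (chr11:568112-568133, minus strand): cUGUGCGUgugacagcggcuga
miR-874-3p (chr5:137647582-137647603, minus strand): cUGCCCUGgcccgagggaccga
The reverse complement of each seed was searched as DNA on the strand of the probes, which are 60 bases long and carry the letters of the transcript. GGGAGAA, for the seed of miR-629-3p, occurred in 0.747% of the 58201 gene probes. The letters ACGCACA, for that of miR-210-3p, were in 0.131% of them. For miR-874-3p, CAGGGCA was in 0.387%. None of the 3 occurred in any of the 77 probes for the repair genes. This says only that the letters are not in those windows, since the rest of each transcript was not searched.

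Signals are given on the log2 scale after each array was set to its own 75th percentile, so that 0 is the 75th percentile of the gene probes of an array. Where a gene had several probes that passed the detection filter the brightest stands for the gene, and levels are compared only between groups and never between genes. The probe in use was well above background on all 8 arrays for all 43 genes. The squamous label was checked with 10 epithelial markers, of which 9 were well above background on all 8 arrays and KRT16 on 6. Of the fibroblast markers, COL1A2, DCN and LUM were above background on no array and COL1A1 on 6, while 2 of 4 immune markers and 2 of 3 endothelial markers were above it on all 8. Between 48.3% and 49.8% of gene probes were well above background with miR-629-3p, more than on either NC array, and the 4 arrays of miR-629-3p and miR-210-3p lay in 1 row of the single slide and those of miR-874-3p and NC in the other. Row and mimic therefore cannot be told apart when miR-629-3p or miR-210-3p is compared with NC, whereas miR-874-3p against NC and miR-629-3p against miR-210-3p each lie within a row. The 3 comparisons with NC share the same NC arrays.

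Of the repair genes, 6 were called in 1 comparison each. In limma's moderated test over 21283 genes (Benjamini-Hochberg adjusted p under 0.05), 4 of the 43 fell with miR-629-3p, namely RAD23B, ERCC2, BRCA1 and RAD50, and 0 rose. Among all genes tested, 7.47% fell and 9.28% rose in that comparison. Under miR-210-3p 2 rose, ERCC6 and FANCM, and 0 fell, against 3.85% and 2.2% of all genes. For miR-874-3p 0 rose and 0 fell, against 0.216% and 0.207% of all genes. At the study's own threshold, an unadjusted p under 0.05 with a change of at least 2-fold, 0 repair genes passed in any of the 3 comparisons, where 5.26%, 3.14% and 2.02% of all genes did. Of the 17401 genes well above background on all 8 arrays, as the 43 were, 530, 247 and 78 did. At an unadjusted p under 0.05 alone, 16, 11 and 8 repair genes passed in the order of the comparisons above, against backgrounds of 33.6%, 26% and 16.4%. The median log2 difference of the 43 genes was -0.10, 0.03 and -0.11, where that of all genes was 0.02, 0.05 and -0.01. Changes were under 0.5 on the log2 scale for 40, 42 and 43 of the repair genes, against 77.9%, 83.1% and 88% of all genes. Among genes well above background on all 8 arrays the shares were 83.6%, 88.9% and 94.2%. For the repair genes the standard error of a difference ran from 0.0616 to 0.303 with a median of 0.0967. The 6 calls had adjusted p-values from 0.0335 to 0.0468. Each was lost under 3 to 8 of the 15 alternatives that left out no array. All kept their direction under all 23 alternatives. Several of these change only the test or leave out an array of another group, so they could not change the direction. Without any 1 of the arrays of NC, miR-629-3p or miR-210-3p, 0 or 1 repair gene was called in either comparison, and without either miR-874-3p array 9 and 5 were. With 2 arrays a group, a gene that missed the threshold was not shown to be unchanged.

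**Figure D1:**
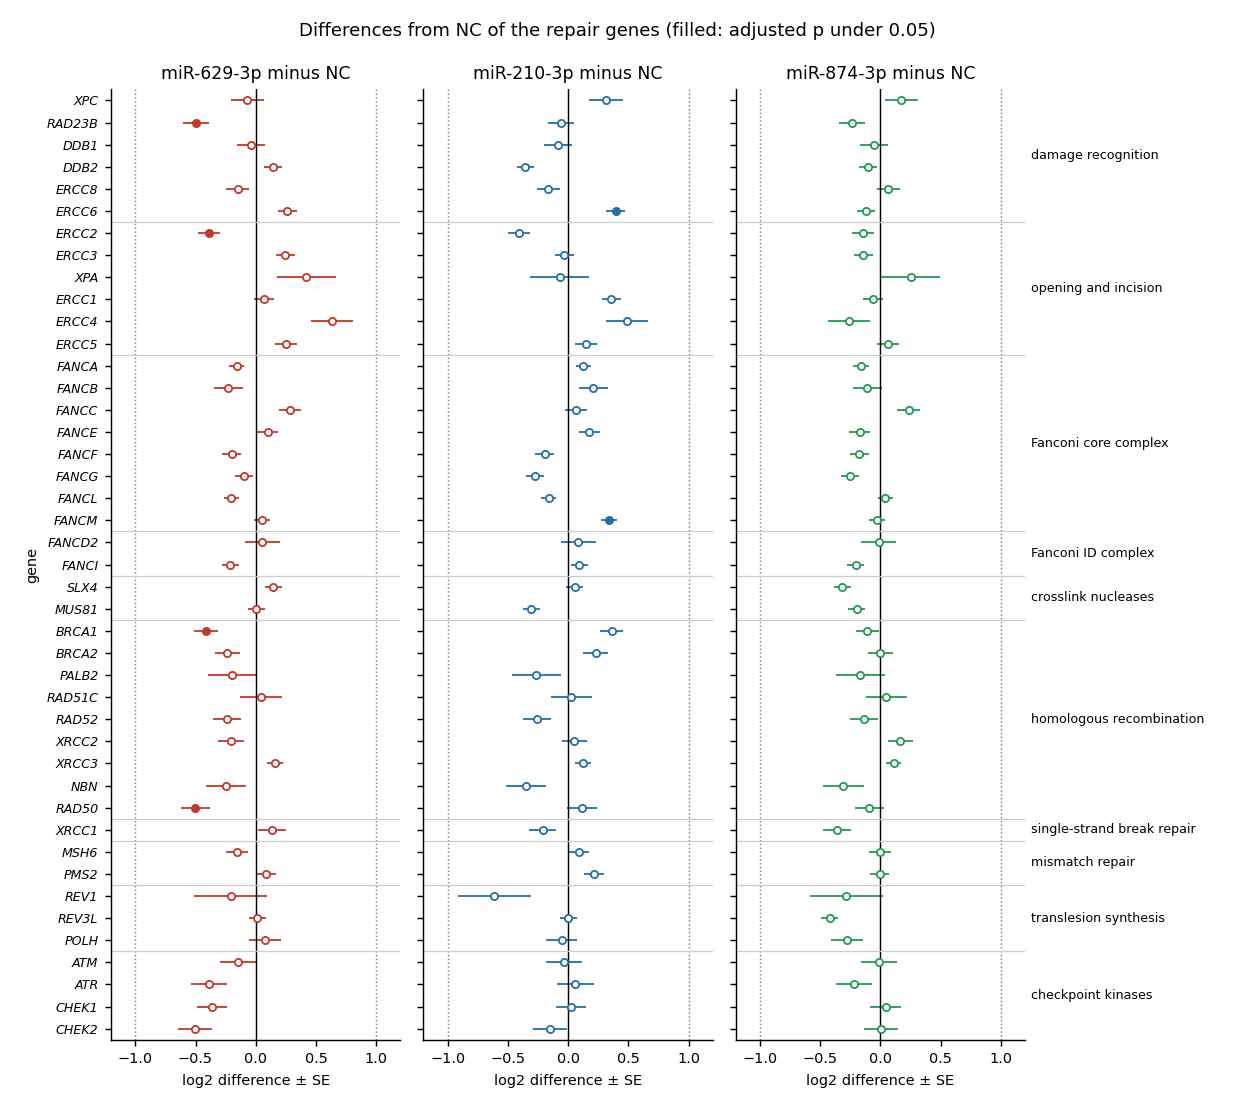
Log2 difference from NC, with its standard error, of the 43 repair genes (rows, grouped by role) for each mimic (panels). Filled points have an adjusted p under 0.05 (4, 2 and 0 genes), and all points lie within the dotted lines at a 2-fold change.

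Damage recognition held 6 of the genes. RAD23B, the partner that stabilises the damage sensor XPC, was at 2.66 and 2.68 on the NC arrays, 2.19 and 2.16 under miR-629-3p, 2.66 and 2.57 under miR-210-3p, and 2.58 and 2.29 under miR-874-3p. Both miR-629-3p arrays lay below all 6 others. RAD23B fell with miR-629-3p by 0.50 on the log2 scale (SE 0.108, 1.41-fold, adjusted p = 0.0335 by limma). A second RAD23B probe, at chr9:110081100-110081159 on hg19 rather than chr9:110094244-110094303, read -0.45 with miR-629-3p (adjusted p = 0.0826 over all probes) and 0.28 with miR-210-3p, where the first read -0.06. With miR-874-3p the second probe read -0.38 from NC and the first -0.23. On the second probe the miR-629-3p arrays, 1.71 and 1.86, overlapped those of miR-874-3p, 1.91 and 1.81.

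ERCC6, the CSB protein that couples repair to stalled transcription, was at 1.14 and 1.01 with NC, 1.35 and 1.33 under miR-629-3p, 1.49 and 1.45 under miR-210-3p, and 0.92 and 0.99 under miR-874-3p. The groups did not overlap, in the order miR-210-3p, miR-629-3p, NC and miR-874-3p. ERCC6 rose with miR-210-3p by 0.39 (SE 0.0760, adjusted p = 0.0451). It was 0.26 above NC with miR-629-3p (adjusted p = 0.0698) and higher with either of those mimics than with miR-874-3p, by 0.51 and 0.38 (adjusted p = 0.0205 and 0.0274).

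DDB2, the damage-binding subunit that marks lesions in chromatin, was 4.19 and 4.30 under miR-629-3p, 3.76 and 3.73 under miR-210-3p, 3.98 and 4.02 under miR-874-3p, and 4.13 and 4.07 with NC. The difference of miR-210-3p from NC was -0.35 (adjusted p = 0.0514), at the edge of the threshold, and its second probe read -0.31. Directly compared, DDB2 was 0.50 higher with miR-629-3p than with miR-210-3p (adjusted p = 0.00982). XPC, DDB1 and ERCC8, the other sensors, had differences from NC between -0.17 and 0.31, and none passed the test.

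The genes that open the helix and cut the strand gave 1 call. ERCC2, the XPD helicase of TFIIH, was 0.61 and 0.51 with NC, 0.08 and 0.27 under miR-629-3p, 0.18 and 0.14 under miR-210-3p, and 0.45 and 0.39 under miR-874-3p. Both NC arrays were the highest. ERCC2 fell with miR-629-3p by 0.39 (SE 0.0915, adjusted p = 0.0425), and its difference with miR-210-3p, -0.41, had an adjusted p of 0.0625. Its second probe, for the same transcript at chr19:45864815-45864874, gave -0.06 and -0.02 where the first, at chr19:45856515-45856574, gave -0.39 and -0.41. The ERCC2 call therefore held for 1 of the 2 probes.

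ERCC1, which forms the 5′ nuclease with the product of ERCC4, was 2.96 and 3.04 with NC, 3.06 and 3.08 under miR-629-3p, 3.42 and 3.30 under miR-210-3p, and 2.88 and 2.99 under miR-874-3p. The miR-210-3p arrays were the highest. Its difference with miR-210-3p was 0.36 (SE 0.0814, adjusted p = 0.0631), but the second ERCC1 probe read -0.07. Against miR-874-3p, ERCC1 was 0.42 higher with miR-210-3p (adjusted p = 0.0364). The second probe had means of 2.054 with miR-874-3p and 2.047 with miR-210-3p.

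XPA, the scaffold that verifies damage, was 0.58 and 0.66 with NC, 1.01 and 1.07 under miR-629-3p, 0.51 and 0.59 under miR-210-3p, and 1.26 and 0.48 under miR-874-3p. The 2 miR-874-3p arrays differed by 0.784, the widest gap between them for any repair gene. The difference of miR-629-3p from NC, 0.42 (SE 0.244), had an adjusted p of 0.282, and a dimmer probe for a non-coding XPA transcript read 0.93 (adjusted p = 0.0897 over all probes).

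Of the other genes in this step, ERCC4 had the largest differences. Its arrays read -1.84 and -2.20 with NC, -1.35 and -1.43 under miR-629-3p, -1.49 and -1.57 under miR-210-3p, and -2.49 and -2.08 under miR-874-3p. Both mimics were above NC, by 0.63 and 0.49, with adjusted p = 0.0631 and 0.154. By this probe ERCC4 was 0.89 higher with miR-629-3p than with miR-874-3p (adjusted p = 0.0264). A dimmer second ERCC4 probe, well above background on only 2 arrays, read 0.59, -0.02 and 0.36 from NC, taking the mimics in that order. On it the miR-629-3p arrays exceeded those of miR-874-3p by 0.23 on average (adjusted p = 0.578 over all probes). ERCC3, the XPB helicase, and ERCC5, the 3′ nuclease, were 0.24 and 0.25 above NC with miR-629-3p (adjusted p = 0.092 and 0.119).

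**Figure D2:**
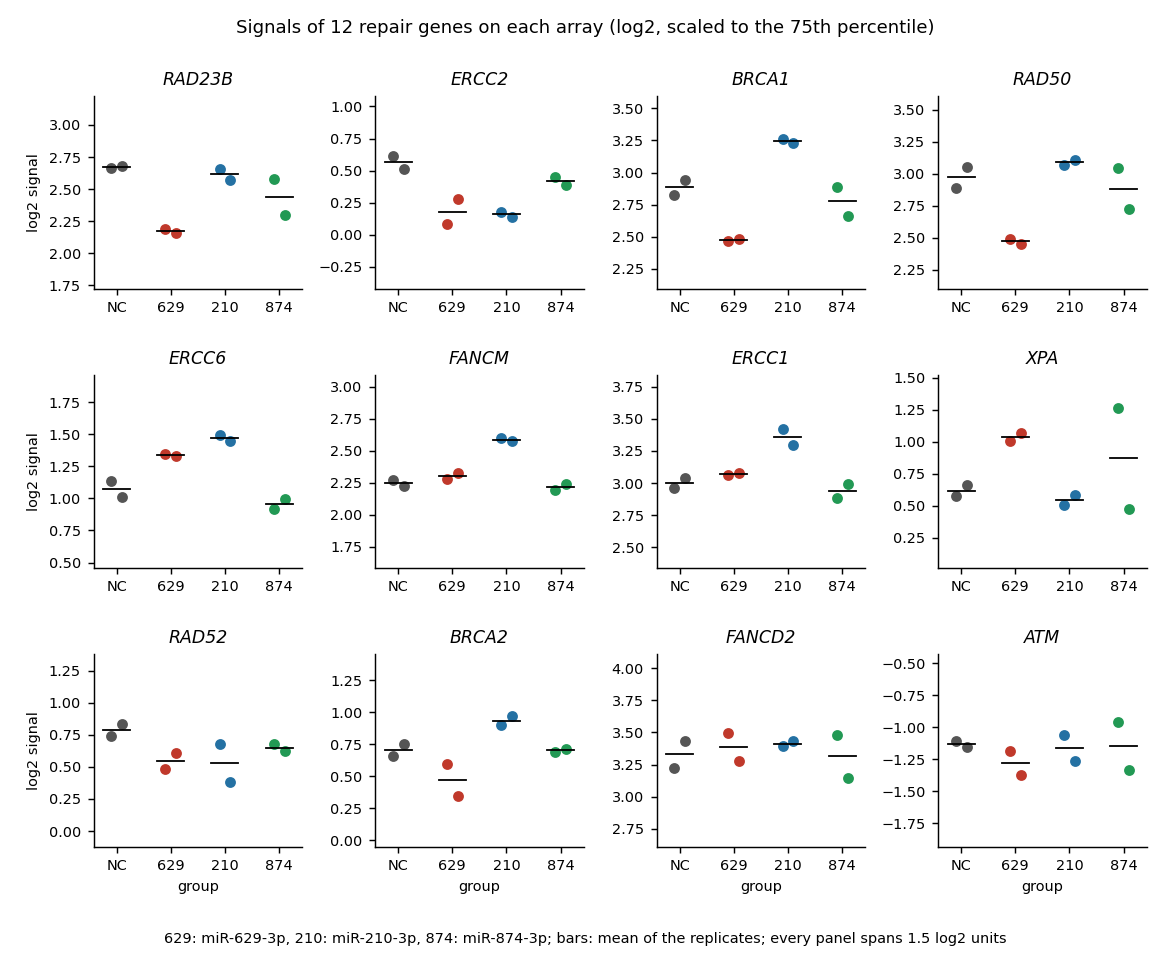
Log2 signal, relative to the 75th percentile of each array, of 12 repair genes on the 2 arrays of each group, with bars at the group means. BRCA1 and RAD50 sit lowest with miR-629-3p, FANCM and ERCC1 sit highest with miR-210-3p, and the 2 miR-874-3p arrays of XPA are 0.784 apart.

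The Fanconi pathway held 10 of the genes, 8 of them counted with the core complex that attaches ubiquitin and 2, FANCD2 and FANCI, that receive it. FANCM, the translocase that brings the complex to a stalled fork, was 2.27 and 2.23 with NC, 2.28 and 2.33 under miR-629-3p, 2.60 and 2.57 under miR-210-3p, and 2.19 and 2.24 under miR-874-3p. The miR-210-3p arrays were above all others, and FANCM rose with miR-210-3p by 0.34 (SE 0.0662, adjusted p = 0.0467). It was lower with miR-629-3p than with miR-210-3p, by 0.28 (adjusted p = 0.0339), and 0.37 higher with miR-210-3p than with miR-874-3p (adjusted p = 0.0309).

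FANCD2 was 3.23 and 3.43 with NC, 3.49 and 3.28 under miR-629-3p, 3.39 and 3.43 under miR-210-3p, and 3.48 and 3.15 under miR-874-3p, and all 4 groups overlapped. Its differences from NC were 0.06, 0.08 and -0.01, and 2 further probes gave -0.34 to 0.16 with miR-629-3p. FANCI, its partner, was -0.21, 0.09 and -0.21 from NC, with adjusted p = 0.0957, 0.45 and 0.24, and differed by -0.30 between miR-629-3p and miR-210-3p (adjusted p = 0.0322).

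Of the other 7 core genes, none was called against NC. FANCL, the ubiquitin ligase, was -0.20 and -0.16 from NC with miR-629-3p and miR-210-3p (adjusted p = 0.0772 and 0.174). FANCG was -0.28 from NC under miR-210-3p and -0.26 under miR-874-3p (adjusted p = 0.0904 and 0.199). FANCC was 0.28 with miR-629-3p and 0.23 with miR-874-3p, but its second probe read -0.29 and 0.04. By their probes in use FANCA, FANCB, FANCE and FANCF stayed between -0.23 and 0.21 in all 3 comparisons. The second FANCF probe read -0.63 from NC with miR-210-3p (adjusted p = 0.0613 over all probes). FANCA was 0.29 lower with miR-629-3p than with miR-210-3p (-0.29, adjusted p = 0.0312), although its dimmest probe read 0.57 and 0.42 from NC with those 2 mimics. That probe passed the test with miR-629-3p (adjusted p = 0.0191 over all probes), opposite in sign to the -0.16 of the probe in use. SLX4, a scaffold for nucleases, was 0.44 and 0.43 under miR-874-3p, below all 6 other arrays, at -0.32 from NC (adjusted p = 0.136). Compared with miR-874-3p it was higher by 0.46 with miR-629-3p and by 0.37 with miR-210-3p (adjusted p = 0.0147 and 0.0359). MUS81, the nuclease that cuts stalled forks, was -0.31 from NC with miR-210-3p (adjusted p = 0.0653) and 0.31 higher with miR-629-3p than with miR-210-3p (adjusted p = 0.0313).

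Homologous recombination held 9 of the genes and gave 2 of the 4 calls with miR-629-3p. BRCA1, which directs resection and recombination, was 2.83 and 2.94 with NC, 2.47 and 2.48 under miR-629-3p, 3.26 and 3.23 under miR-210-3p, and 2.89 and 2.66 under miR-874-3p. The miR-629-3p arrays were the lowest and the miR-210-3p arrays the highest. BRCA1 fell with miR-629-3p by 0.41 (SE 0.0967, adjusted p = 0.0418), whereas it was 0.36 above NC with miR-210-3p (adjusted p = 0.0871). The 2 mimics differed from each other by -0.77 (miR-629-3p minus miR-210-3p, SE 0.0967, 1.71-fold, adjusted p = 0.00699), within 1 row of the slide. BRCA1 was also 0.47 higher with miR-210-3p than with miR-874-3p (adjusted p = 0.0415). The 1 BRCA1 probe lies at chr17:41196422-41196481 on hg19.

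RAD50, the ATPase of the complex that binds broken ends, was 2.89 and 3.05 with NC, 2.49 and 2.45 under miR-629-3p, 3.07 and 3.11 under miR-210-3p, and 3.04 and 2.72 under miR-874-3p. Both miR-629-3p arrays were below the other 6, and RAD50 fell with miR-629-3p by 0.50 (SE 0.123, 1.42-fold, adjusted p = 0.0468). The difference between miR-629-3p and miR-210-3p was -0.62 (adjusted p = 0.0222). Its probe covers 131976479 to 131977910 of chromosome 5, more than its own 60 bases, and so joins separate stretches of the genome.

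BRCA2, the mediator that loads the recombinase, was 0.65 and 0.75 with NC, 0.59 and 0.34 under miR-629-3p, 0.90 and 0.97 under miR-210-3p, and 0.69 and 0.71 under miR-874-3p. It lay in the same order as BRCA1 for the first 2 mimics, at -0.24 and 0.23 from NC (adjusted p = 0.174 and 0.229), and the direct difference of -0.47 passed the test (adjusted p = 0.029). RAD52, an annealing factor listed elsewhere as a miR-210 target, was 0.74 and 0.83 with NC, 0.49 and 0.61 under miR-629-3p, 0.68 and 0.38 under miR-210-3p, and 0.68 and 0.63 under miR-874-3p. The NC arrays were the highest, but its difference with miR-210-3p, -0.26 (SE 0.117), had an adjusted p of 0.237. As a check on the mimic, 4 of 8 other genes listed as miR-210 targets fell with it and 1 rose, with NDUFA4 at -1.38 and ISCU at -1.17. PALB2, RAD51C, XRCC2 and NBN had differences between -0.35 and 0.17 and none passed. XRCC3 was 0.16, 0.12 and 0.11 above NC by its brightest probe, which carries only an Ensembl transcript name, and -0.04, -0.17 and -0.43 by the probe for the RefSeq mRNA, so no direction is given.

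**Figure D3:**
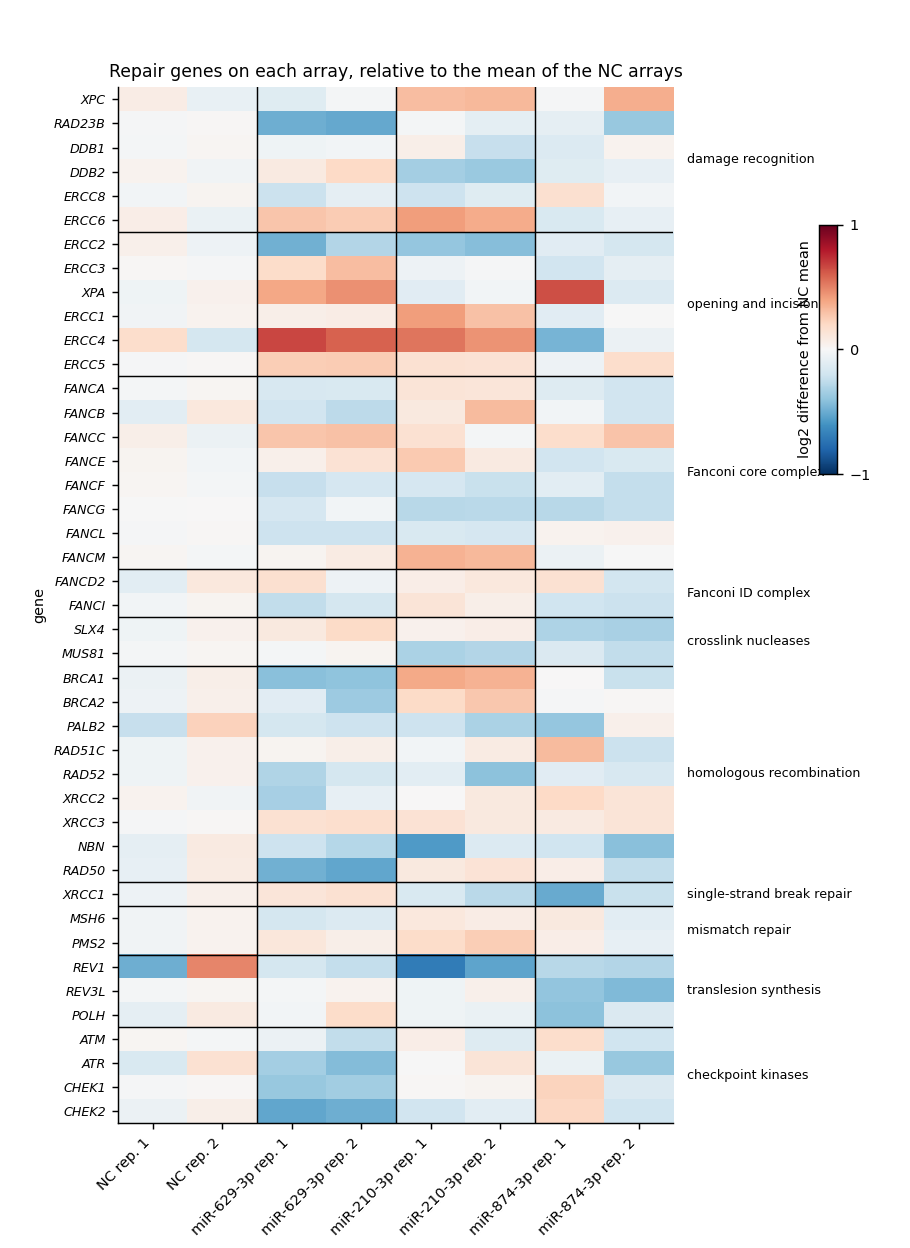
Log2 difference from the mean of the NC arrays, from -1 (blue) to 1 (red), for the 43 repair genes (rows, by role) on all 8 arrays (columns). BRCA1, RAD50, RAD23B, CHEK1 and CHEK2 are blue on both miR-629-3p arrays, while REV1 differs by 0.982 between the NC arrays.

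XRCC1, the scaffold of single-strand break repair, was -0.36 from NC with miR-874-3p (adjusted p = 0.218) and 0.50 higher with miR-629-3p than with miR-874-3p (adjusted p = 0.0398). The mismatch repair genes MSH6 and PMS2 had differences from NC between -0.16 and 0.21, none called. PMS2 has near-identical copies elsewhere in the genome, and its 5 probes, which may share signal with them, read from -0.47 to 0.20 with miR-629-3p.

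Among the translesion polymerases, REV3L, the catalytic subunit of polymerase zeta, was 2.38 and 2.34 under miR-874-3p and between 2.74 and 2.83 on all other arrays. The difference from NC, -0.42 (SE 0.0709), had the lowest unadjusted p of the repair genes in that comparison, 0.00125, and an adjusted p of 0.0855. REV3L was 0.43 and 0.42 higher with miR-629-3p and miR-210-3p than with miR-874-3p (adjusted p = 0.0169 and 0.0264). REV1 was 0.25 and 1.23 on the NC arrays, the widest replicate gap in the list, and its difference of -0.61 with miR-210-3p (SE 0.303) did not pass. POLH, which copies past adducts within a strand, was within -0.28 to 0.08 of NC.

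By their brightest probes all 4 checkpoint kinases were below NC with miR-629-3p, and none passed the test. ATM was -1.11 and -1.15 with NC, -1.19 and -1.38 under miR-629-3p, -1.06 and -1.26 under miR-210-3p, and -0.96 and -1.33 under miR-874-3p. Its differences from NC were -0.15, -0.03 and -0.01, and the 2 dimmer ATM probes read -0.21 and 0.19 with miR-629-3p. ATR, CHEK1 and CHEK2 were -0.39, -0.36 and -0.50 from NC with miR-629-3p (adjusted p = 0.139, 0.107 and 0.064), while the second ATR probe read -0.02. By the probe in use both miR-629-3p arrays of CHEK2, 0.79 and 0.81, lay below the lowest of the other 6, 1.11. Another CHEK2 probe passed at -0.60 (adjusted p = 0.0102 over all probes), and the remaining kept probe read -0.39. With miR-874-3p these dimmer CHEK2 probes read -0.48 and -0.58 from NC (adjusted p = 0.0788 and 0.116 over all probes). The probe in use read 0.004 there.

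Tested across the 4 groups at once, 11 of the 43 genes (25.6%) passed the F test at an adjusted p under 0.05, against 25.2% of all genes. These were DDB2, ERCC6, ERCC1, ERCC4, FANCM, FANCI, SLX4, MUS81, BRCA1, RAD50 and REV3L. Between the mimics, 9 repair genes differed between miR-629-3p and miR-210-3p, with 2 higher and 7 lower under miR-629-3p, where 9.83% and 12.7% of all genes were. Compared with miR-874-3p, 6 were higher and 0 lower under miR-629-3p, against 9.34% and 6.88% of all genes. In the contrast of miR-210-3p with miR-874-3p the same numbers, 6 and 0, stood against 6.33% and 3.47%.

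Of the 22 genes with more than 1 probe, 19 kept more than 1, and the kept probes of a gene read in opposite directions for 7, 10 and 8 genes in the 3 comparisons with NC, taken in the order of the mimics above. The 2 RAD23B probes and the 3 CHEK2 probes read the same way with miR-629-3p. The probes of ERCC2, ERCC1, ERCC4, FANCA, FANCC, FANCF and XRCC3 differed as given above.

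**Figure D4:**
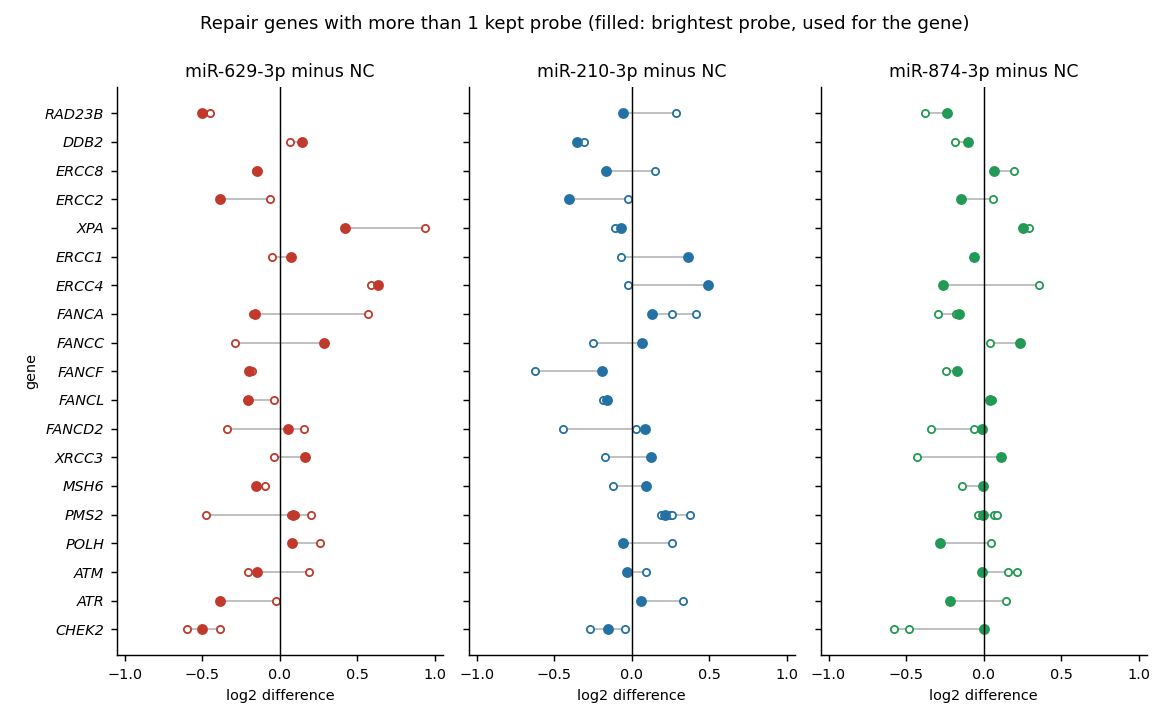
Log2 difference from NC of each kept probe of the 19 repair genes with more than 1, for each mimic (panels), with the probe used for the gene filled. The 2 RAD23B probes lie together at -0.50 and -0.45 under miR-629-3p, and the ERCC2 probes lie apart at -0.39 and -0.06.

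The other repair genes were counted from a separate list of 74 names, of which 68 were on the array and 67 could be tested. Under miR-629-3p 3 rose and 6 fell, under miR-210-3p 2 rose and 0 fell, and under miR-874-3p 0 passed, and their median differences were -0.08, 0.12 and -0.07. EME2, a partner of MUS81, rose with miR-629-3p by 0.75 (adjusted p = 0.0102), and RAD54L, a recombination motor protein, fell by 0.52 (adjusted p = 0.0155). Many repair genes are transcribed as cells enter S phase, so 30 genes of replication and mitosis were read beside them. With miR-629-3p 6 of these fell and 0 rose, with a median of -0.28, and CENPF, a kinetochore protein, fell by 0.56 (adjusted p = 0.0111). With miR-210-3p 2 rose (median 0.08). With miR-874-3p 1 fell, CCNE1, the cyclin of S phase entry, by 0.95 (adjusted p = 0.0122), and the median was -0.21. Between miR-629-3p and miR-210-3p, 15 of the 30 and 24 of the 67 other repair genes were lower with miR-629-3p, beside the 7 of 43 given above and 12.7% of all genes. Of the 10 squamous markers, 3 were called lower under miR-629-3p and 4 under miR-210-3p, and 1 endothelial marker, VWF, rose with miR-629-3p by 0.90. The part of these markers and of the replication and mitosis genes in the repair gene values was not tested.

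**Figure D5:**
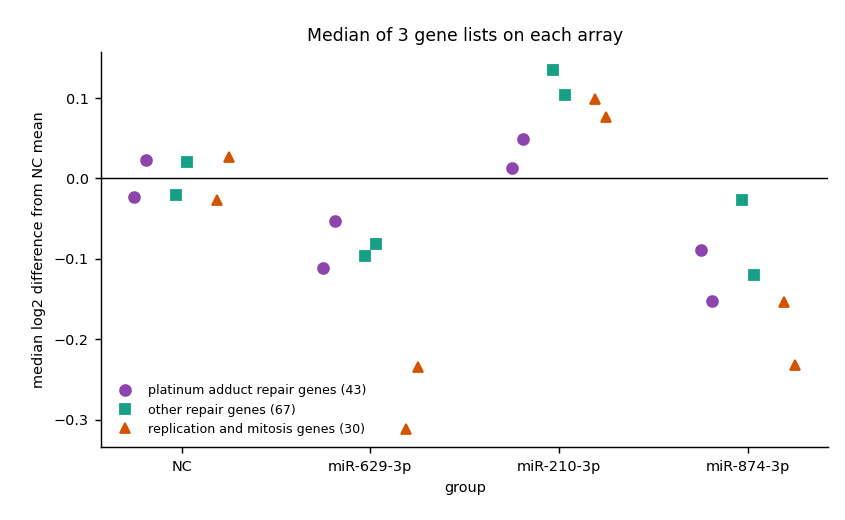
Median log2 difference from the NC mean on each array for the 43 platinum adduct repair genes, the 67 other repair genes and the 30 replication and mitosis genes, by group. The replication and mitosis genes were lowest on the miR-629-3p arrays, at -0.31 and -0.24, where the 43 repair genes were at -0.11 and -0.05.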

How the data were processed

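Total RNA (100 ng per the labels) of 8 samples was hybridised to 1-colour Agilent arrays, and the groups were taken from the sample labels. The deposited scanner files hold spot intensities (processed, mean and background signals) and probe positions on hg19, written by Agilent Feature Extraction 11.5.1.1 per the submitters' processing notes. The authors also deposited log2 values, which equalled the scanner log2 signals scaled to the 75th percentile apart from a shift per array of at most 0.0488 in size, and which served as an alternative. Their log2 base and centring were found by that match and are not given in the sources used here.

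Outlier-flagged gene spots were dropped and repeated spots averaged. The log2 processed signal was set to the 75th percentile of the gene probes of each array. A probe needed a value on all 8 arrays and the scanner's flag for signal above background on both replicates of 1 or more groups, and the brightest such probe stood for each of 21283 genes. All 8 arrays entered 1 fit with 4 group means (limma 3.58.1, R 4.3.3, lmFit and eBayes, 4 residual and 1.68 prior degrees of freedom, Benjamini-Hochberg over all genes). A call is an adjusted p under 0.05 at any fold. The number of arrays limits the precision. The script was checked on simulated data.

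The members, the other lists, the alternatives and the genes shown were chosen with earlier results of these data known. Genes called against NC on both arrays, and ERCC1, XPA, RAD52, RAD23B, BRCA1, BRCA2, FANCD2 and ATM whatever their values, were to be given on every array, and other members by range or difference. DDB2, ERCC4, SLX4, REV3L, REV1 and CHEK2 were added after their values were seen. At most 4 genes of the other lists were to be named, those with the lowest adjusted p, and NDUFA4, ISCU and VWF were added after their values were seen. Figures were drawn with matplotlib 3.10.9.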

Additional observations from a re-analysis of the deposited data

Results flagged for a closer look

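Each of the following genes differed directly between 2 mimics, with an adjusted p under 0.05 by limma and no NC array in the contrast. Between miR-629-3p and miR-210-3p, both in 1 row of the slide, the log2 differences (miR-629-3p minus miR-210-3p) were -0.774 for BRCA1, -0.616 for RAD50, -0.466 for BRCA2, -0.443 for RAD23B, -0.302 for FANCI, -0.287 for FANCA and -0.283 for FANCM. DDB2 and MUS81 were higher with miR-629-3p, at 0.5 and 0.311. The second probes of RAD23B and DDB2 read -0.735 and 0.372 in this contrast, while the other FANCA probes read -0.434 and 0.153. These 7 lower and 2 higher of the 43 genes stood beside 12.7% and 9.83% of all genes. Damage recognition gave 1 of each, RAD23B and DDB2.

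Against miR-874-3p, which lay in the other row, the log2 differences with miR-629-3p were 0.891 for ERCC4, 0.498 for XRCC1, 0.462 for SLX4, 0.431 for REV3L, 0.386 for ERCC3 and 0.381 for ERCC6. With miR-210-3p they were 0.512 for ERCC6, 0.471 for BRCA1, 0.423 for REV3L, 0.419 for ERCC1, 0.37 for FANCM and 0.37 for SLX4. ERCC6, SLX4 and REV3L appeared in both contrasts, which share the miR-874-3p arrays. Row and mimic cannot be told apart in these 2 contrasts. The dimmer ERCC4 probe read 0.227 where the probe in use read 0.891, so the size of that difference depends on the probe.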

How the results depend on the processing

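None of the 6 calls against NC held under every setting. Of the 21 log2 differences followed under 23 alternatives, 17 kept their sign throughout. Alternatives that change only the test, or leave out an array of another group, could not change a sign. For a gene with 1 probe, neither could the choice of the second brightest. The exceptions were ERCC2 with miR-874-3p (0.06011) and ERCC1 with miR-210-3p (-0.06752) by the second brightest probe, BRCA1 with miR-874-3p without the second array of that group (0.002745, and -0.2204 without the first), and XPA with miR-874-3p without the first (-0.1403, and 0.6433 without the second). RAD23B with miR-629-3p kept its call under 14 of the 23 alternatives and ERCC2 under 9, and over all 23 their adjusted p-values ran from 0.00837 to 0.14 and from 0.0242 to 0.57.

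The numbers of repair genes called in the 3 comparisons with NC (4, 2 and 0, for miR-629-3p, then miR-210-3p, then miR-874-3p) became 8, 7 and 1 after normexp background correction, and 8, 8 and 1 with eBayes with trend and robust settings. Requiring detection on all 8 arrays gave 7 and 6 for the first 2, no filter on detection gave 1 and 0, and fitting only the 2 groups compared gave 2 and 0. The deposited log2 values and keeping outlier spots each gave 2 with miR-629-3p, and the mean over all kept probes gave 1 with miR-210-3p. The methods' t-test after Benjamini-Hochberg gave 0 for all 3, with 13, 15 and 6 repair genes at an unadjusted p under 0.05. By the F test, 20, 2, 18 and 21 genes were called in place of 11 with normexp, no filter, detection on all arrays, and trend and robust settings. No filter adds dim probes, and the median of all genes then moved to -0.17 with miR-629-3p and to -0.11 for miR-210-3p. The causes of the shifts in these counts were not tested. Here and below, counts under the alternatives are given without the share of all genes called in the same setting. They therefore do not show whether the repair genes moved apart from the rest of the array.

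The median of the repair genes with miR-629-3p, -0.10, became -0.06269 with normexp, -0.05218 with the deposited values, -0.05176 with outlier spots kept, -0.05552 over all kept probes and -0.06103 by the second brightest probe. In those settings, in turn, the median of all genes was 0.00708, 0.0725, 0.0698, 0.0297 and 0.0247, against 0.02475 before. With miR-210-3p the median of the repair genes became -0.01637, below 0, when arrays were centred on the median of the kept probes. That of all genes moved from 0.05027 to 0.00692 there.

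The alternatives of the direct contrasts, and those by RefSeq mRNA probe and second brightest probe, were chosen after seeing the data. For miR-629-3p against miR-210-3p, where 9 genes were called, 1 was called with no filter, 15 with only the 2 groups, 16 with trend and robust settings and 4 by the t-test. For miR-629-3p against miR-874-3p, 12, 0, 14 and 0 in place of 6 were called with normexp, only the 2 groups, trend and robust, and the t-test. For miR-210-3p against miR-874-3p, the counts in place of 6 were 12 with normexp, 0 with no filter, 10 with detection on all arrays, 0 with only the 2 groups, 11 with trend and robust, and 0 by the t-test.

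Leaving out 1 array at a time, 0 to 9, 0 to 5 and 0 to 0 repair genes were called in the 3 comparisons with NC, and 0 to 13 by the F test. The ranges were 0 to 17, 0 to 12 and 0 to 4 for the direct contrasts in the order above. The medians against NC ran from -0.1118 to -0.02001, from -0.01497 to 0.04846 and from -0.153 to -0.03429. Groups left with 1 array were assumed to vary like the others.

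Replicate numbers did not pair the samples: deviations of same-numbered arrays correlated at -0.106 to 0.034. With the replicate block, 0 repair genes were called against NC with any mimic, 1 by the F test, and 3, 2 and 0 in the direct contrasts in the order above, while the medians were unchanged at -0.10, 0.03 and -0.11.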
